A study of Mus musculus with 10 samples.

Results

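The genes described here encode subunits and assembly factors of respiratory complex I, taken by name as every gene of the deposited expression table whose symbol begins with Nduf. There were 35 of them among 6147 listed genes. By symbol, 10 belonged to the Ndufs and Ndufv series, which is called core here, 23 to the Ndufa, Ndufb and Ndufc series, called accessory, and 2 to the Ndufaf series of assembly factors (Ndufaf2 and Ndufaf5). Names and biochemistry do not coincide fully: the catalytic core subunits encoded in the nucleus include Ndufs1, Ndufs3, Ndufs7, Ndufs8, Ndufv1 and Ndufv2, while Ndufs4, Ndufs5 and Ndufs6 are accessory subunits, and Ndufa4 is now regarded as a subunit of complex IV. All 7 nuclear core subunits were in the table. None of the 7 complex I genes of the mitochondrial genome was in it, and Ndufa3, Ndufb2, Ndufc1, Ndufv3 and the other Ndufaf genes were not analysed here.

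RNA was measured in the neocortex of wild-type CD1 mice, an outbred strain, at embryonic days E12.5, E14, E15.5 and E17 and at birth (P0). Each stage had 2 libraries from biological duplicates, 10 in all, with no treatment. The frozen tissue was pulverised and the lysate cleared by spinning before the RNA was extracted and made into stranded libraries of polyadenylated RNA. The labels name no litter, sex, number of animals per sample or batch.

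Complex I, the NADH:ubiquinone oxidoreductase, is the largest enzyme of the mitochondrial respiratory chain. Its matrix arm holds the N module, which oxidises NADH, and the Q module, which passes the electrons through iron-sulfur clusters to ubiquinone; its membrane arm, the proximal and distal P modules, pumps protons. It is put together from pre-built modules with the help of assembly factors that are not part of the finished enzyme, and its loss causes Leigh syndrome and other disease of the developing brain.

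Promoter sequence is shown for members that share a sequence pattern near their start, because the 6 largest rises reported below, those of Ndufaf5, Ndufa8, Ndufa5, Ndufb10, Ndufs5 and Ndufa6, fell among them. The windows were the 250 bases before to 50 bases after each annotated start, from RefSeq on GRCm38.p6, and 31 of the 35 members were matched. The pattern CGCANGC, the centre of the palindromic element known for nuclear respiratory factor 1 (NRF1), was searched on both strands. It was found in 14 of the 31 members (45.2%), against 16.3% of all 32817 windows. For every pattern, members were counted once each, over 33 windows. The share over all windows counts each window, whether or not its gene was among the listed genes, so the 2 shares differ in unit and in set. Each line gives the match nearest to the start on the gene's own strand, 5′ to 3′, with the pattern or its reverse complement in capitals. The first 6 genes rose from E12.5 to P0, and Ndufa12 and Ndufc2 are shown because they fell.
Ndufaf5: gtcccgttggCGCATGCgcctaataga
Ndufa8: cgctggagacGCATGCGcagatggtac
Ndufa5: gtgtgagctgCGCAGGCgcaaatctac
Ndufb10: cacctttctgCGCAGGCgtagaggtcc
Ndufs5: ctgcttgctgCGCAGGCgcagacccgc
Ndufa6: gtggcaccgcGCGTGCGcacgctgaag
Ndufa12: ccagctctgcGCCTGCGtagaacgacc
Ndufc2: acaatgtcagCGCAAGCcttcacgcgt
These stretches lie at chr2:140170653-140170679 (plus strand) for Ndufaf5, chr2:36049330-36049356 (minus) for Ndufa8, chr6:24527699-24527725 (minus) for Ndufa5 and chr17:24724408-24724434 (minus) for Ndufb10. Those of the other members are at chr4:123718267-123718293 (minus) for Ndufs5, chr15:82354250-82354276 (minus) for Ndufa6, chr10:94198907-94198933 (plus) for Ndufa12 and chr7:97399956-97399982 (plus) for Ndufc2. The capitals began between 189 bases before the start (Ndufa5) and 26 bases after it (Ndufa6). The members not printed that held the pattern were Ndufa7, Ndufa11, Ndufaf2, Ndufb4, Ndufs3 and Ndufs6.

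A different pattern, AAGATGG, part of the element known for the factor YY1, was searched in the same way and found in 5 members (16.1%) against 6.34% of all windows. It is shown for Ndufs7, the only catalytic core subunit that rose in the main fit described below, and for Ndufb8, an accessory subunit that rose.
Ndufs7: ggccgaggccAAGATGGcggcgctggc
Ndufb8: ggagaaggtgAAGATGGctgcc
In Ndufs7 (chr10:80249463-80249489, plus strand) the capitals began 25 bases after the start, and in Ndufb8 (chr19:44555393-44555414, minus) 39 bases after it. The other members with it were Ndufa9, Ndufs4 and Ndufs6. The ETS-type pattern CCGGAAG was found in 4 members (12.9%; Ndufb6, Ndufb7, Ndufs3 and Ndufs8) against 8.86% of all windows. No match of one pattern overlapped a match of another in the members. The patterns were chosen after expression values had been seen, and a match is a description of letters in a window.

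Values were given as TPM, a share of transcripts in which reads are divided by gene length and every library is brought to a common total. Levels are per length and can be set side by side between genes, but the gene lengths used are not given and the order of the members depends on them. The number of reads behind the values is unknown. The listed genes made up 68.9 to 71.7% of that total in each library, and the 35 Nduf genes together 0.410 to 0.531%. Ndufa4 was the highest member at every stage, with a mean of 649 TPM ± 18.6 (SD, n = 2) at E12.5 and 692 at P0, and Ndufb4, a subunit of the distal membrane arm, was the lowest, with 18.8 TPM at E12.5 and 19.6 at P0. The highest member stood 31.9 to 42.4-fold above the lowest within a library. At P0, 30 of the 35 members lay between 50 and 250 TPM. The order of the members was similar at the first and last stage, with a Spearman correlation of stage means of 0.919 across the 35 genes, which share the same libraries. The plot of member levels shows that most of the spread lay between genes, not between stages.

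**Figure D1:**
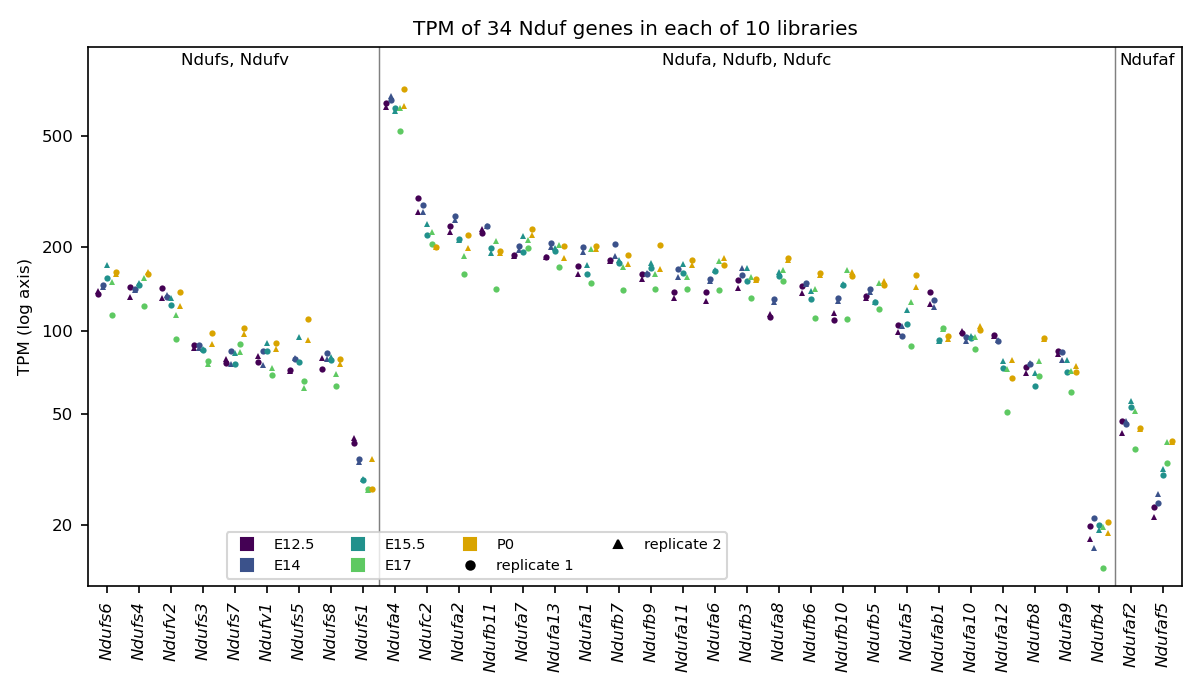
TPM of 34 of the 35 Nduf genes (log axis) in each of 10 libraries, grouped by symbol series and sorted by mean level; colour marks the stage, and circles and triangles mark replicates 1 and 2. Ndufa4 lies between 524 and 741 TPM, Ndufb4 is the lowest gene at every stage, and the green circle of E17 replicate 1 is the lowest mark for 21 of the 34 genes.

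One library stood apart. In E17 replicate 1, 30 of the 35 members were lower than in E17 replicate 2, with a median difference of −0.25 in log2(TPM + 1), while the median difference of all 6048 tested genes was 0.16 and 28.0% of them were lower in replicate 1. In the other 4 stages the members' median difference between replicates was between −0.06 and 0.04. The members are short, with a median coding length of 468 bases against 1509 for all listed genes, and in the same library genes of at most 600 coding bases had a median difference of −0.08 and longer ones 0.19. What set this library apart was not tested; counts of called members that involve E17 are given with and without it.

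Markers checked the tissue. Of 7 neocortical markers, 6 were in the table, and their summed level was 1002 to 1609 TPM in every library. Summed progenitor markers were 1385 and 1470 TPM at E12.5 and 195 and 201 at P0, and summed neuronal markers 2374 and 2407 TPM at E12.5 and 8569 and 9326 at P0. The 3 of 7 glial markers in the table (Gfap, Aldh1l1 and Slc1a3) summed to 55.2 and 58.4 TPM at E12.5 and 108 and 104 at P0. Markers of other tissues that were in the table were high only at the first 2 stages. The 5 of 5 meningeal genes summed to 106 to 173 TPM at E12.5 and E14 and to 2.22 to 6.63 TPM later. The 2 of 5 choroid plexus genes (Ttr and Clic6) summed to 303 to 1517 and then 3.07 to 5.26 TPM. The 3 of 7 erythroid genes (Hbb-y, Hbb-bh1 and Slc4a1) summed to 1880 to 4494 and then 2.04 to 9.84 TPM. Hba-x, Hba-a1, Hbb-bs and Alas2 were not in the table, so blood seen through those genes is not covered. None of the 5 microglial or 5 vascular markers was in the table. In bulk tissue, a change in the number of cells of a type and a change of RNA per cell cannot be told apart.

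Across the whole period from E12.5 to P0, the number of Nduf genes called depended on the scaling and on the libraries kept. Of 35 members, 12 rose and 5 fell at an adjusted p under 0.05 (limma on log2(TPM + 1), adjusted by Benjamini-Hochberg over 6048 genes), and 18 were not called. The background was high: 27.1% of all tested genes were called higher and 51.0% lower. The members' median change was 0.10 on the log2 scale, with a range from −0.50 to 0.82, against a median of −0.27 for all genes. The 680 other tested genes of at most 600 coding bases had a median of −0.06, with 219 called higher and 273 lower. The 25 members of that length had a median of 0.18, with 10 called higher and 3 lower. Both P0 libraries lay above both E12.5 libraries for 20 members, against 32.5% of all genes, and below them for 8, against 58.4% of all genes. Because TPM are shares of a total, the zero of this scale depends on the scaling: when each library was divided by the median ratio of its genes to their means, the all-gene median moved from −0.27 to −0.01, the members' median was 0.37, and 24 members were called higher and 0 lower, beside 37.9% and 37.7% of all genes. All 12 members called higher stayed called under that scaling and none of the 5 called lower did. With each library centred on its median Nduf gene, which takes out what the members share, Ndufa5, Ndufa8 and Ndufaf5 were called higher and 8 members lower, beside 16.9% and 53.6% of all genes. The counts that follow, from fits without 1 library, have no share of all genes beside them. Leaving out 1 library at a time gave 10 to 16 members called higher and 3 to 8 called lower, with 3 without P0 replicate 1 and 8 without either E17 library.

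**Figure D2:**
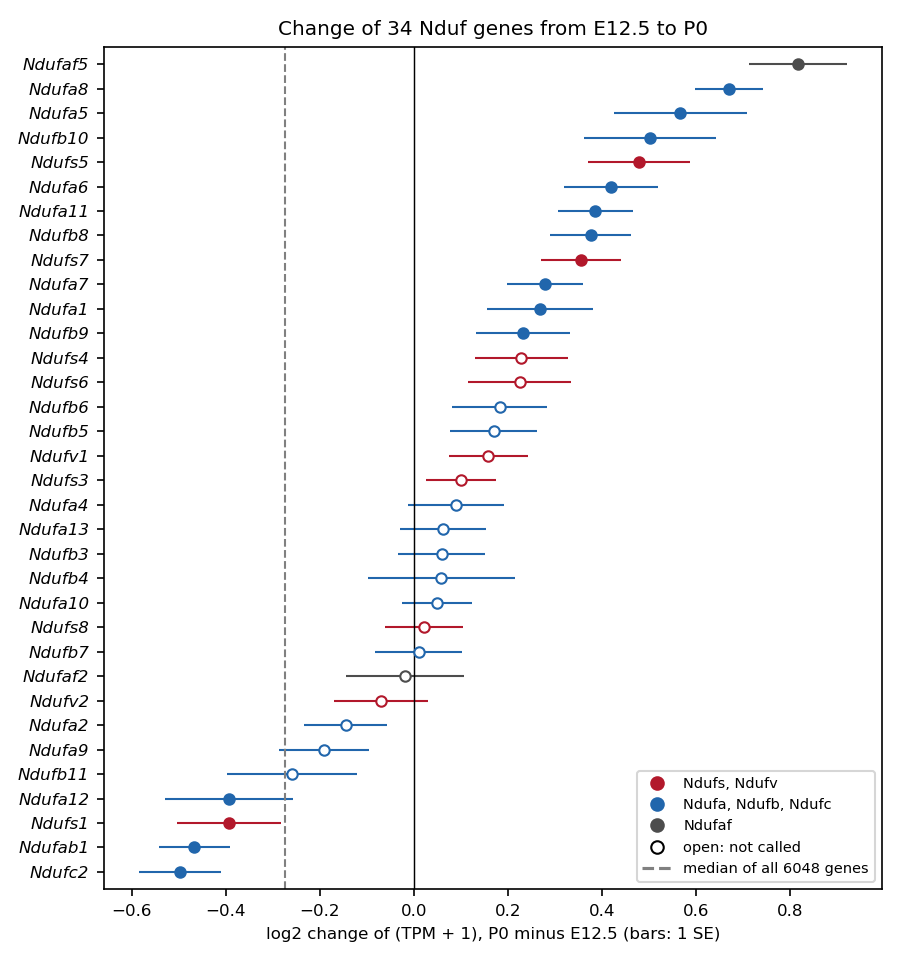
Change of 34 Nduf genes from E12.5 to P0 in log2(TPM + 1), later minus earlier stage, with bars of 1 SE; filled points passed an adjusted p of 0.05 and the dashed line is the median of all 6048 genes. The points run from −0.50 (Ndufc2) to 0.82 (Ndufaf5), and 30 of 34 lie to the right of the dashed line at −0.27.

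Among the catalytic core subunits, 1 of 7 rose and 2 fell, with a median of 0.02. Ndufs1, the largest subunit of the N module and carrier of several of its iron-sulfur clusters, measured 39.3 and 41.0 TPM at E12.5, 34.6 and 33.6 at E14, 28.9 and 29.1 at E15.5, 26.8 and 26.6 at E17 and 26.8 and 34.3 at P0. Both E12.5 libraries were above every later one, and the P0 libraries lay apart from each other. Its change to P0 was −0.39 ± 0.11 (SE; adjusted p = 0.00653), and without P0 replicate 1 it was −0.22 (adjusted p = 0.0532). On the opposite strand, exons of Ndufs1 overlap those of Eef1b2, an abundant elongation factor gene. Exons of 13 of the 35 members overlap those of a gene on the opposite strand, among them Ndufab1, Ndufa11, Ndufa2, Ndufs3 and Ndufaf2, and the strand setting of the counting is not given.

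Ndufs7, a Q module subunit that holds the last iron-sulfur cluster before ubiquinone, measured 76.6 and 79.0 TPM at E12.5, 84.6 and 75.7 at E14, 75.9 and 83.2 at E15.5, 89.7 and 83.9 at E17 and 102 and 97.1 at P0. Both P0 libraries were above every earlier library. The change of 0.35 ± 0.09 (adjusted p = 0.00246) was the only call upwards among the core subunits in this fit. With the median-ratio scaling, Ndufs3, Ndufs8 and Ndufv1 were also called higher.

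Ndufv1, Ndufv2, Ndufs3 and Ndufs8 were not called from E12.5 to P0. Ndufv1, which binds NADH, measured 76.8 and 81.2 TPM at E12.5, 84.5 and 75.3 at E14, 84.6 and 90.2 at E15.5, 69.0 and 73.4 at E17 and 90.5 and 85.9 at P0. Its partner Ndufv2 measured 142 and 130 TPM at E12.5, 132 and 134 at E14, 124 and 131 at E15.5, 93.1 and 113 at E17 and 137 and 122 at P0. For both genes the E17 libraries were below every other library, and the E12.5 to P0 changes were 0.16 (adjusted p = 0.106) and −0.07 (adjusted p = 0.539). Ndufs3, a scaffold of the Q module, measured 88.6 and 86.2 TPM at E12.5, 88.4 and 86.5 at E14, 85.3 and 86.0 at E15.5, 77.5 and 76.0 at E17 and 97.9 and 89.8 at P0. Ndufs8, which holds a pair of iron-sulfur clusters, measured 72.7 and 79.9 TPM at E12.5, 82.7 and 79.0 at E14, 78.3 and 80.0 at E15.5, 63.1 and 70.0 at E17 and 79.1 and 75.6 at P0. These also had their lowest values at E17, and their changes to P0 were 0.10 (adjusted p = 0.228) and 0.02 (adjusted p = 0.823).

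Of the 25 accessory subunits in the biochemical sense, without Ndufa4, 10 rose and 3 fell, with a median of 0.18. By module, 2 of 9 N module members rose and 2 fell (median 0.16), 2 of 6 Q module members rose and 1 fell (0.06), 4 of 7 proximal P module members rose and 1 fell (0.27), and 3 of 10 distal P module members rose and 1 fell (0.11). Every module therefore held members called in each direction. No difference between modules or classes was tested, since their members share the same libraries. The proximal membrane arm held both the largest accessory rise and the largest fall of all members.

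Ndufa8, a twin-CX9C protein of the proximal membrane arm on the intermembrane-space side, measured 112 and 114 TPM at E12.5, 130 and 126 at E14, 158 and 162 at E15.5, 150 and 165 at E17 and 182 and 180 at P0. Its P0 libraries were above all others and its E12.5 libraries below all others. The change was 0.67 ± 0.07 (adjusted p = 4.5e-06), from 113 to 181 TPM in the mean, and it was called in all 22 alternative settings. Ndufs5, a CX9C protein of the same region, measured 72.3 and 71.8 TPM at E12.5, 79.0 and 79.7 at E14, 77.0 and 94.9 at E15.5, 65.9 and 62.1 at E17 and 110 and 92.3 at P0. Here the path was not steady: E17 was the lowest stage and P0 replicate 1 the highest library, and the change from E12.5 to P0 was 0.48 ± 0.11 (adjusted p = 0.0017).

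Ndufc2, a small membrane subunit of the proximal arm, moved the other way. It measured 300 and 267 TPM at E12.5, 283 and 267 at E14, 221 and 242 at E15.5, 205 and 227 at E17 and 200 and 200 at P0. Its E12.5 and E14 libraries were all above the later 6. The change of −0.50 ± 0.09 (adjusted p = 0.00024) was the largest fall of any member, and with the median-ratio scaling it was −0.22 (adjusted p = 0.0787). Ndufab1, the mitochondrial acyl carrier protein, which also serves lipoic acid and iron-sulfur cluster synthesis, measured 137 and 124.5 TPM at E12.5, 129 and 121 at E14, 92.3 and 91.8 at E15.5, 102 and 101 at E17 and 95.8 and 92.9 at P0. The 4 early libraries did not overlap the 6 later ones, and the fall to P0 was −0.47 ± 0.08 (adjusted p = 0.000138), or −0.19 with the median-ratio scaling (adjusted p = 0.0541).

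Ndufa12, an N module subunit whose place is held during assembly by the factor Ndufaf2, measured 96.2 and 95.5 TPM at E12.5, 91.5 and 92.5 at E14, 73.0 and 77.7 at E15.5, 50.8 and 72.6 at E17 and 67.6 and 78.4 at P0. All 6 later libraries were below the 4 early ones, with a change to P0 of −0.39 ± 0.14 (adjusted p = 0.0201) that was lost without P0 replicate 1 (−0.29, adjusted p = 0.164), without E12.5 replicate 1 (adjusted p = 0.0756) or without E12.5 replicate 2 (adjusted p = 0.0694). Ndufa6, an N module subunit of the LYR protein family, measured 137 and 127 TPM at E12.5, 153 and 150 at E14, 163 and 166 at E15.5, 140 and 177 at E17 and 172 and 183 at P0. Its E12.5 libraries were the lowest of all, and the change was 0.42 ± 0.10 (adjusted p = 0.00247). Ndufa5, a Q module subunit, measured 104 and 98.5 TPM at E12.5, 95.7 and 104 at E14, 105 and 118 at E15.5, 87.8 and 127 at E17 and 159 and 143 at P0. Only the P0 libraries stood clear of the others, and the change was 0.57 ± 0.14 (adjusted p = 0.00314), called in all 22 alternatives.

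In the distal membrane arm, Ndufb10 measured 109 and 116 TPM at E12.5, 130 and 128 at E14, 146 and 148 at E15.5, 110 and 165 at E17 and 157 and 162 at P0. Its E12.5, E14 and E15.5 libraries did not overlap, each stage lying above the one before, while the E17 libraries lay far apart, and the change to P0 was 0.50 ± 0.14 (adjusted p = 0.00651; 0.0503 without P0 replicate 2). The other members called higher were Ndufa11 (0.39), Ndufb8 (0.38), Ndufa7 (0.28), Ndufa1 (0.27) and Ndufb9 (0.23). The last 2 were close to the threshold, with adjusted p values of 0.0467 and 0.0497, and were called in 12 and 9 of the 22 alternatives. Exons of Ndufb8 and Ndufb9 overlap those of another annotated gene on the same strand (Gm20538 and Gm49356), so reads could have been shared or dropped. Ndufb4, the lowest member, measured 19.8 and 17.8 TPM at E12.5, 21.2 and 16.5 at E14, 19.9 and 19.0 at E15.5, 13.96 and 19.6 at E17 and 20.4 and 18.7 at P0, with overlapping stages and a change of 0.06 (adjusted p = 0.744).

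Ndufa4 measured 662 and 636 TPM at E12.5, 676 and 700 at E14, 635 and 619 at E15.5, 524 and 635 at E17 and 741 and 644 at P0. The E12.5 and P0 libraries overlapped (0.09, adjusted p = 0.439). Its paralogue Ndufa4l2 was not analysed here, and the annotation also holds pseudogene copies named after Ndufa11, Ndufab1, Ndufb4 and Ndufs6, with which reads could be shared.

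The assembly factors in the table differed from each other. Ndufaf5, a methyltransferase-like protein that modifies Ndufs7 early in assembly, measured 23.1 and 21.4 TPM at E12.5, 24.0 and 25.7 at E14, 30.0 and 31.7 at E15.5, 33.3 and 39.8 at E17 and 40.2 and 39.7 at P0. Its libraries did not overlap between E12.5, E14, E15.5 and E17, each stage lying above the one before, and the change to P0 was 0.82 ± 0.10 (adjusted p = 1.94e-05), called in all 22 alternatives and the largest rise of any member. Ndufaf2 measured 47.1 and 42.8 TPM at E12.5, 45.9 and 47.3 at E14, 53.0 and 55.6 at E15.5, 37.4 and 51.4 at E17 and 44.7 and 44.0 at P0. Its E12.5 and P0 values overlapped, with a change of −0.02 (adjusted p = 0.901).

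**Figure D3:**
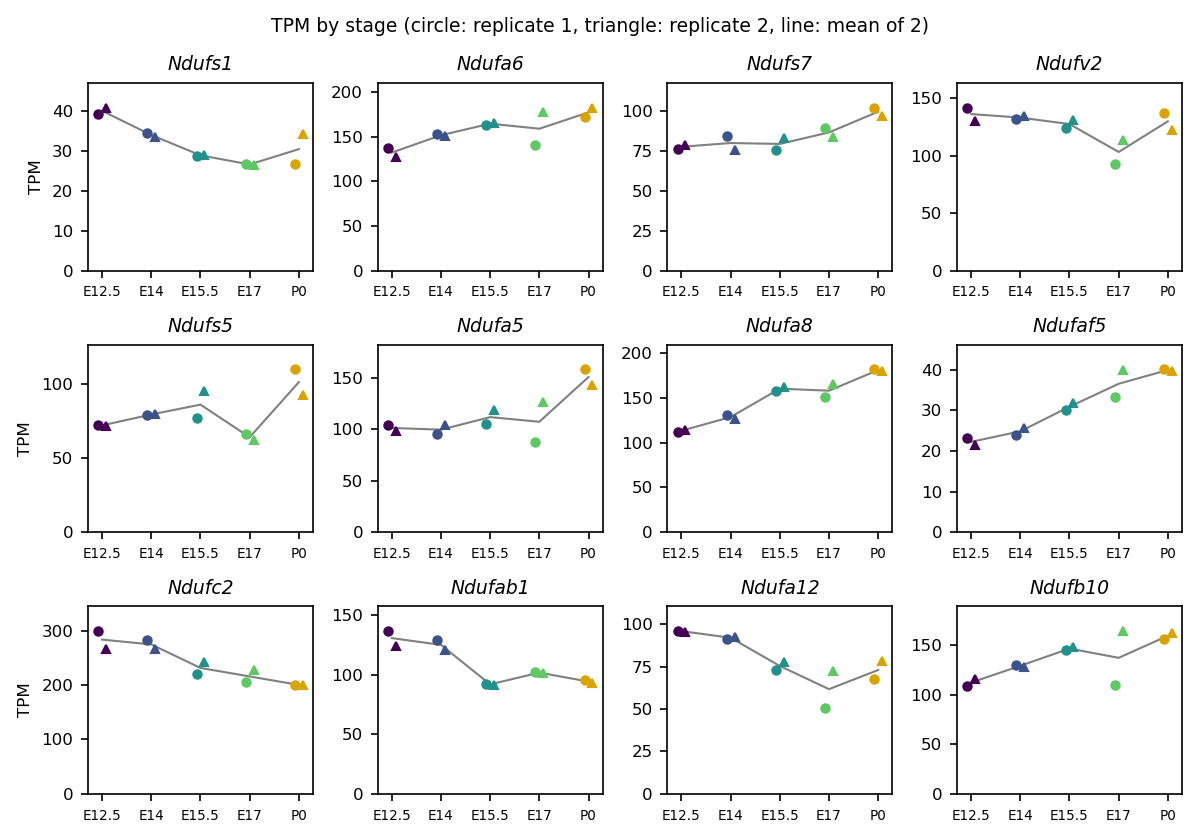
TPM of 12 Nduf genes by stage, each on its own axis from 0, with a circle for replicate 1, a triangle for replicate 2 and a line through the mean of 2. Ndufa8 and Ndufaf5 climb over the stages, Ndufc2 and Ndufab1 end below their start, and Ndufv2 and Ndufs5 dip at E17.

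The promoter patterns shown above can be set beside these calls. Of the 14 members with the NRF1 pattern, 8 were called higher from E12.5 to P0 (Ndufaf5, Ndufa8, Ndufa5, Ndufb10, Ndufs5, Ndufa6, Ndufa11 and Ndufa7), 2 lower (Ndufa12 and Ndufc2), and 4 were not called. Of the 17 matched members without it, 3 were called higher, 1 lower and 13 were not called. Of the 5 members with the YY1 pattern, Ndufs7 and Ndufb8 were called higher and the other 3 were not called, and none of the 4 with the ETS pattern was called. Of all tested genes, 27.1% were called higher and 51.0% lower. The calls of other listed genes with a pattern were not counted, and no test was made of the counts of members. The patterns were chosen after these expression values had been seen, so the counts only describe these members. Ndufs1, called lower, Ndufb9, called higher, and Ndufa2, not called, were among the members with no entry in the promoter table.

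The earliest step gave no member call. From E12.5 to E14, 0 of 35 members were called in either direction by limma, beside 3.95% of all genes called higher and 4.78% lower, while 2 were higher and 0 lower at an unadjusted p under 0.05. Both E14 libraries lay above both E12.5 libraries for 19 members (24.7% of all genes) and below for 4 (45.4% of all genes). The median change was 0.07, against −0.06 for all genes and 0.05 for the 680 other genes of at most 600 coding bases. Leaving out either E17 library gave 5 members called higher, Ndufa1, Ndufa11, Ndufa6, Ndufa8 and Ndufb10, beside 10.9% of all genes.

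From E14 to E15.5, 2 members rose and 3 fell, beside 18.4% and 33.3% of all genes. Both E15.5 libraries lay above both E14 libraries for 10 members (31.6% of all genes) and below for 16 (56.1% of all genes). Those that rose were Ndufa8 (0.32, adjusted p = 0.0036) and Ndufaf5 (0.30, adjusted p = 0.03). Those that fell were Ndufab1 (−0.44, adjusted p = 0.000538), Ndufa2 (−0.26, adjusted p = 0.0289) and Ndufc2 (−0.25, adjusted p = 0.0326). Ndufab1 was called in every alternative setting. The calls of Ndufaf5, Ndufa2 and Ndufc2 were each lost when any of the 4 libraries compared was left out, which left 1 member called in each direction. Without E17 replicate 1, 5 members were called higher and 9 lower, beside 23.4% and 43.0% of all genes, and without E17 replicate 2, 5 and 8, beside 23.4% and 42.9%. No core member by name was called. The members' median was −0.03 against −0.13 for all genes, and with the median-ratio scaling it was 0.09 against −0.01. Without that scaling, the 680 other genes of at most 600 coding bases had a median of −0.09. This was also the interval over which the meningeal, choroid plexus and erythroid sums fell to near 0, and their part in these changes was not tested.

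The E17 stage gave the lowest summed level. The 35 members together had a mean of 5175 TPM ± 187 (SD, n = 2) at P0 and 5077 ± 67.0 at E14, 4872 ± 140 at E15.5 and 4825 ± 104 at E12.5, beside 4493 ± 559 at E17. The E17 mean came from 4098 TPM in replicate 1 and 4888 in replicate 2, and the latter lay within the range of the other stages. From E15.5 to E17, 5 members fell and 0 rose, beside 10.6% and 14.4% of all genes, and 1 was higher at an unadjusted p under 0.05. Those that fell were Ndufs5 (−0.41, adjusted p = 0.0194), Ndufv2 (−0.31, 0.044), Ndufa2 (−0.30, 0.0276), Ndufv1 (−0.29, 0.0276) and Ndufs8 (−0.25, 0.0494), where the last number in each pair is the adjusted p. Without E17 replicate 1, Ndufs5 and Ndufv1 kept their calls and Ndufa1, Ndufaf5 and Ndufb5 were called higher, beside 12.2% of all genes called higher and 17.5% lower. Without E17 replicate 2, 23 members were called lower, beside 17.3% of all genes. Leaving out any 1 library of E12.5, E14 or E15.5 also gave fewer members called lower. No share of all genes is given for those fits. Both E17 libraries lay below both E15.5 libraries for 14 members (29.7% of all genes), among them 6 of the 7 catalytic core subunits, the exception being Ndufs7, and above them for 3 (30.7% of all genes).

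From E17 to P0, 12 members rose and 0 fell, beside 12.9% and 28.8% of all genes, and 0 were lower at an unadjusted p under 0.05. The median was 0.22, against −0.10 for all genes and 0.07 for the 680 other genes of at most 600 coding bases. Both P0 libraries lay above both E17 libraries for 20 members (22.0% of all genes) and below for 2 (39.9% of all genes). The largest was Ndufs5 (0.65, adjusted p = 0.000975), followed by Ndufa5 (0.51), Ndufb6 and Ndufb8 (each 0.35), Ndufv2 (0.33), Ndufv1 (0.31), Ndufs6 (0.30), Ndufs3 and Ndufb9 (each 0.29), Ndufa2 (0.28), Ndufa11 (0.24) and Ndufa8 (0.20). Without E17 replicate 1, 6 members were called higher, beside 17.5% of all genes, and 5 of the 12 kept their calls: Ndufa5, Ndufb8, Ndufs3, Ndufs5 and Ndufv1. Without E17 replicate 2, 28 were called, beside 17.4% of all genes, and without P0 replicate 1, 3 were called, of which Ndufs5 and Ndufb8 were shared with the 12. With each library centred on its median Nduf gene, 0 were called higher and 2 lower. No share of all genes is given for that setting or for the fit without P0 replicate 1. This comparison and the one before share the E17 libraries, so a low value there gives a fall in the first and a rise in the second.

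**Figure D4:**
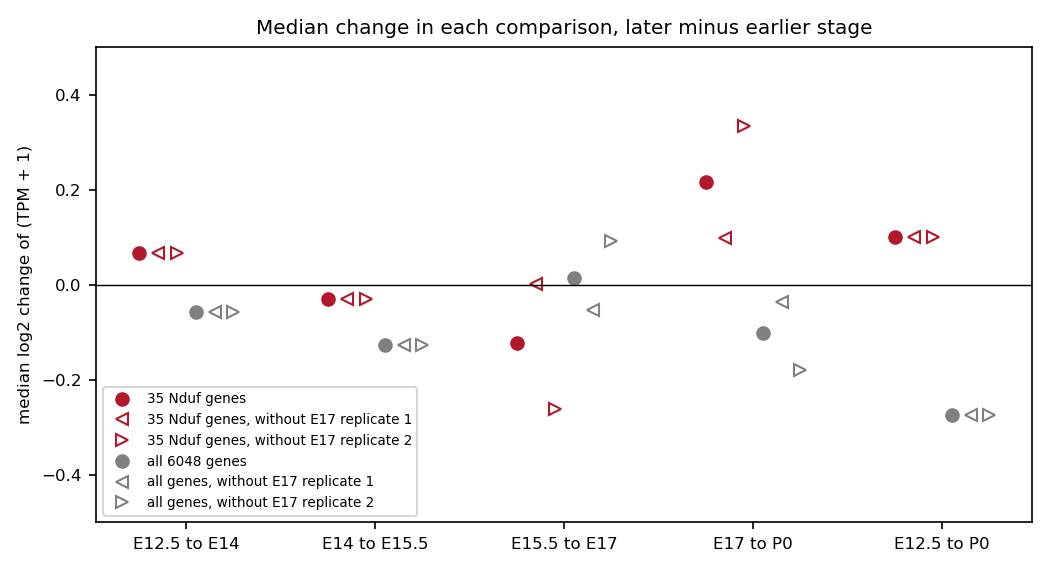
Median log2 change of (TPM + 1) in each comparison, later minus earlier stage, for the 35 Nduf genes (red) and all 6048 genes (grey), with open triangles for the fits without E17 replicate 1 or replicate 2. The Nduf median from E15.5 to E17 is −0.12 with both E17 libraries and near 0 without replicate 1, and the Nduf median from E17 to P0 is 0.22 and stays above 0 without either.

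Comparing E15.5 with P0 avoids both the E17 libraries and the stages at which the meningeal, choroid plexus and erythroid sums were high. All 10 libraries still set the spread, and blood seen only through erythroid genes absent from the table is not covered. Over this interval 4 members rose, Ndufb8 (0.48, adjusted p = 0.000836), Ndufa5 (0.43, adjusted p = 0.0255), Ndufaf5 (0.36, adjusted p = 0.0135) and Ndufs7 (0.32, adjusted p = 0.00825). None fell, while 3 were lower at an unadjusted p under 0.05. The background was 19.5% of all genes called higher and 30.7% lower. Both P0 libraries lay above both E15.5 libraries for 16 members (33.2% of all genes) and below for 3 (48.8% of all genes). The members' median was 0.07, against −0.09 for all genes and −0.02 for the 680 other genes of at most 600 coding bases. Without E15.5 replicate 1 or without P0 replicate 1, 1 member was called higher, and without either E17 library 9 were called higher and 3 lower, beside 26.0% and 40.6% of all genes. No share of all genes is given for the fits without E15.5 replicate 1 or P0 replicate 1. The median-ratio scaling gave 10 members called higher, beside 27.7% of all genes. With each library centred on its median Nduf gene none of the 4 kept its call, 0 being called higher and 3 lower, beside 5.82% and 34.6% of all genes. A moderated F test over all 5 stages called 20 of the 35 members, beside 82.9% of all genes (25 members and 91.1% of all genes without E17 replicate 1, 34 members and 94.4% without E17 replicate 2, and 12 members without E12.5 replicate 2 or P0 replicate 1). The 20 were 6 of the 7 catalytic core subunits, 13 of the 25 accessory subunits and 1 of the 2 assembly factors. For the F test without E12.5 replicate 2 or P0 replicate 1, no share of all genes is given.

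Other genes of the pathway were taken from lists. Against the same background of 27.1% of all genes called higher and 51.0% lower, of 7 further complex I assembly factors in the table, 3 were called higher and 3 lower at P0 against E12.5. The largest rises, equal to the digits given, were those of Ecsit and Chchd4. Ecsit, a factor of the membrane-arm assembly complex, went from 28.2 TPM ± 1.01 to 42.6 ± 0.167 (SD, n = 2; 0.58, adjusted p = 9.33e-05), and Chchd4, which imports CX9C proteins into the intermembrane space, from 83.7 TPM ± 1.37 to 126 ± 4.45 (0.58, adjusted p = 1.23e-05). The largest fall was that of Aifm1, which supports import of subunits, from 24.4 TPM ± 0.616 to 7.94 ± 0.830 (−1.51, adjusted p = 1.64e-07). Nubpl, which delivers iron-sulfur clusters to complex I and is named here after its values were seen, fell from 18.0 TPM ± 0.117 to 6.48 ± 0.0473 (−1.34, adjusted p = 1.71e-07). Of 7 genes of mitochondrial iron-sulfur cluster synthesis, 5 fell and 1 rose, with a median of −0.43, the only rise being that of Nfu1 (0.43, adjusted p = 0.00703).

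The other respiratory complexes were counted over the same period, beside the same 27.1% of all genes called higher and 51.0% lower. Fits without E17 replicate 1 are not given for these lists. In complex II 0 of 3 rose and 2 fell, with Sdha, its flavoprotein subunit, at −0.71 (adjusted p = 3.79e-06). In complex III 1 of 9 rose (Uqcrq, 0.31, adjusted p = 0.0118) and 0 fell, and in complex IV 2 of 8 rose (Cox7a2, 0.50, adjusted p = 0.00284, and Cox6b1, 0.32, adjusted p = 0.0185) and 0 fell. In complex V, the ATP synthase, 1 of 10 rose (Atp5l, 0.83) and 1 fell (Atp5b, −0.41). Of 11 genes used as measures of mitochondrial content, 3 rose and 4 fell, from Hspd1, a matrix chaperonin, at −1.06 to Tomm20, an outer-membrane import receptor, at 0.92. The 4 regulators of mitochondrial gene expression in the table all fell: Gabpa by 1.22, Nrf1 by 1.21, Gabpb1 by 1.04 and Tfam by 0.63 on the log2 scale, and Nrf1 itself went from 44.2 TPM ± 1.99 to 18.5 ± 0.513. How these lists compare with the complex I members was not tested, and summed neuronal, glial and progenitor markers moved over the same stages.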

How the data were processed

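Polyadenylated RNA of 10 mouse neocortex libraries was compared, 2 for each of 5 stages taken from the labels. The values are TPM as deposited, 1 column per library per the file headers; the reads behind them are unknown. STAR, Subread and the build GRCm38.p5 are named in the submitters' processing notes; their versions, settings and annotation, and the rule that chose the 6147 genes, are unknown (not given in the sources used here). Strand setting of the counting is not given either.

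A gene was kept where its 10 libraries averaged at least 1 TPM (6048 genes; 99 were left out, and all 35 members passed), and log2(TPM + 1) was fitted by stage in R 4.3.3 using limma 3.58.1, with 5 residual degrees of freedom and empirical Bayes moderation with a trend. P-values were adjusted by Benjamini-Hochberg over the 6048 genes, and a gene was called higher, risen, lower or fallen at an adjusted p under 0.05. With 2 libraries a stage an exact permutation test could not go below p = 0.333, so precision rests on the spread shared by all stages (median SE of a member's change 0.10). A log2 change on this scale understates changes of low genes. The p-values measure the spread between these libraries. The fit was tested on simulated data with independent noise and few changed genes. No simulated library stood apart as E17 replicate 1 does, so the simulation does not bear on such a library. No count model was used on these TPM.

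Coding lengths and exon overlaps came from GENCODE M21, and promoter sequence from RefSeq (GRCm38.p6). Every Nduf gene could be named; values in every library are given for the catalytic core subunits, the members with the largest rise and fall in each symbol class and module, members called against the majority of their class, and the highest and lowest member. Genes of other lists were named by their largest rise and fall, other names being chosen after values were seen. A few results for genes named by this rule are not reported here. Members and lists were chosen with earlier results of these data known. There were 20 other settings and 3 more chosen after seeing the data; 22 of them apply to each call of a member from E12.5 to P0. No file columns were left without a sample.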

Additional observations from a re-analysis of the deposited data

How the results depend on the processing

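Reads per library are unknown, 2 libraries a stage limit every test, and the zero of TPM moves with the scaling. All 12 rises and 5 falls from E12.5 to P0 kept their sign in 22 alternatives; 3 of the 17 were called in all of them. The causes of the shifts below were not tested. The counts below have no share of all genes beside them, and whether they moved with the calls over all genes was not tested. Counts are members called higher and lower, and "E17-1 out" means the setting, chosen after seeing the data, without E17 replicate 1 plus median-of-ratios scaling.

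Leaving out 1 library at a time gave, from E12.5 to E14, 0 to 5 higher; from E14 to E15.5, 1 to 5 higher and 1 to 9 lower; from E15.5 to E17, 0 to 3 higher, 0 to 23 lower and a median of −0.26 to 0.0016; from E17 to P0, 3 to 28 higher and a median of 0.10 to 0.33; from E12.5 to P0, 10 to 16 higher and 3 to 8 lower; and 12 to 34 members in the F test. Median-of-ratios scaling gave, from E12.5 to P0, 24 higher, 0 lower and a median of 0.37; from E17 to P0, 19 higher; 2 lower from E15.5 to E17; and, from E14 to E15.5, 1 lower and a median of 0.089. Quantile normalization gave 1 higher from E12.5 to E14, 1 lower from E14 to E15.5, and 3 lower and a median of 0.25 from E12.5 to P0. Correction for coding length gave 1 higher from E12.5 to E14, 5 higher from E14 to E15.5, 1 higher and 3 lower from E15.5 to E17, and 19 higher, 3 lower and a median of 0.24 from E12.5 to P0. Without both E17 libraries, 5 were higher from E12.5 to E14, 5 higher and 8 lower from E14 to E15.5, and 8 lower from E12.5 to P0. A fit of only the stages compared gave 8 higher and 1 lower from E12.5 to E14, 2 higher from E17 to P0, 7 higher and 12 lower from E14 to E15.5, and 0 lower from E15.5 to E17. Centring on the median Nduf gene gave 0 lower from E15.5 to E17, 0 higher and 1 lower from E14 to E15.5, 0 higher, 2 lower and a median of −0.074 from E17 to P0, 3 higher, 8 lower and a median of −0.12 from E12.5 to P0, and 8 in the F test. E17-1 out gave 7 higher from E12.5 to E14, 12 higher and a median of 0.089 from E14 to E15.5, 5 higher, 1 lower and a median of 0.061 from E15.5 to E17, 7 higher from E17 to P0, and 27 higher, 2 lower and a median of 0.37 from E12.5 to P0. With E15.5 in place of E12.5, 4 were higher and 0 lower; over that interval median-of-ratios scaling and correction for length each gave 10 higher, E17-1 out gave 17 higher and 1 lower, and centring gave 0 higher and 3 lower.

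Of the 12 members called higher from E17 to P0, 7 kept their sign in all settings, and Ndufa11, Ndufa2, Ndufa8, Ndufb9 and Ndufs3 changed sign with centring (−0.094 to −0.0004). From E12.5 to P0, changes of single members changed sign 36 times under these settings, all of them members not called in that comparison. Centring gave Ndufa10 −0.17, Ndufa13 −0.16, Ndufa4 −0.13, Ndufb3 −0.16, Ndufb4 −0.16, Ndufb5 −0.050, Ndufb6 −0.037, Ndufb7 −0.21, Ndufs3 −0.12, Ndufs8 −0.20 and Ndufv1 −0.061. Median-of-ratios scaling, with or without E17 replicate 1, gave Ndufa2 0.13, Ndufa9 0.082, Ndufaf2 0.25, Ndufb11 0.017 and Ndufv2 0.21. Correction for length gave Ndufa9 0.056, Ndufaf2 0.089 and Ndufv2 0.11, and quantile normalization Ndufa4 −0.0036, Ndufaf2 0.22 and Ndufv2 0.012. Leaving out 1 library at a time gave Ndufa13 −0.010 to 0.13, Ndufa4 −0.012 to 0.19, Ndufaf2 −0.085 to 0.049, Ndufb4 −0.016 to 0.13, Ndufb7 −0.044 to 0.064, Ndufs8 −0.046 to 0.089 and Ndufv2 −0.15 to 0.014.

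Same-numbered replicates did not deviate together (correlations between stages of −0.37 to 0.11 across 6048 genes). The lowest were −0.37 for E12.5 with E17 and −0.28 for E12.5 with E14, where replicates of unlike number tended to deviate in the same direction. Whether a batch was shared by libraries of unlike number was not tested, and the labels name none. With a replicate block 11 members were called higher and 5 lower from E12.5 to P0, 11 higher from E17 to P0 and 4 lower from E15.5 to E17.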
